A study of Mus musculus with 12 samples.

Results

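The RNAs encoded by the mouse mitochondrial genome were followed in Acta2-dsRed+, Pdgfra-GFP+ lung cells at 4 stages. They were the rows of the gene table whose symbol starts with mt-, which gave 36 of 28004 rows: 13 messenger RNAs (mRNAs), 2 ribosomal RNAs (rRNAs) and 21 transfer RNAs (tRNAs). Whole lung was dissociated and cells carrying both reporters were sorted by flow cytometry; dsRed reports Acta2, smooth muscle actin, and GFP reports Pdgfra, a platelet-derived growth factor receptor. Every library came from mice with both reporters, at embryonic day E17.5 or postnatal day P3, P7 or P10, with 3 libraries per stage and no other treatment or allele in the labels. A reporter marks any cell in which its promoter is active, so the sort defines the cells by 2 promoters and not by lineage. The labels do not state whether the 3 libraries of a stage are from different animals; a p-value here covers the spread between these libraries, and that spread may be technical.

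The mitochondrial genome is a small circle transcribed from both strands into long precursors that carry many genes each. The precursors are cut mainly at the tRNAs that lie between the other genes, and the released RNAs are then polyadenylated, modified, loaded onto ribosomes or degraded at their own rates. The mRNAs encode core subunits of respiratory complexes I, III, IV and V, the 12S and 16S rRNAs (mt-Rnr1 and mt-Rnr2) form the mitochondrial ribosome with imported proteins, and the tRNAs serve translation inside the organelle. All other subunits and the factors that transcribe and process these RNAs are encoded in the nucleus. In a bulk sample, fewer mitochondria per cell, less RNA per mitochondrion and fewer cells of a type cannot be told apart.

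The annotation places 27 of the 36 genes on the plus strand and 9 on the minus strand of chromosome M. The minus strand holds mt-Nd6 and 8 of the 21 tRNAs. A further tRNA gene annotated on this chromosome, mt-Ts2, was not analysed here. Positions are on the mouse build GRCm38.

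Several of these genes share sequence with a second place in the genome, which bears directly on their values. A block on chromosome 1, chr1:24611535-24616197 on the minus strand (4663 nt), holds 7 pseudogene models that copy mitochondrial genes. The copies of mt-Co2 (Gm28661), mt-Atp6 (Gm10925), mt-Co3 (Gm28437) and mt-Nd4l (Gm10222) have 0 mismatches over 681, 678, 783 and 294 aligned bases. They cover 99.6%, 99.6%, 99.9% and 99.0% of the mitochondrial gene. The copy of mt-Nd3 (Gm28438) has 1 mismatch in 345 bases, the substitution T3C counted from 1 at the first base of mt-Nd3. The pair below is shown because that base, in capitals, is all that separates these 2 annotated sequences where they align.
mt-Nd3, chrM:9459-9518, plus strand: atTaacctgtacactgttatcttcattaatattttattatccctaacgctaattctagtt
Gm28438, chr1:24613060-24613119, minus strand: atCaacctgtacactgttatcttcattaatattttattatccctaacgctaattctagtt

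The mt-Co2 pair differs only in where the models end. The capitals mark the 3 bases of mt-Co2, its stop codon, that lie past the end of the copy.
mt-Co2, chrM:7637-7696, plus strand: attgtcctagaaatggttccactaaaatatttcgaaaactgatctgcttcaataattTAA
Gm28661, chr1:24614885-24614941, minus strand: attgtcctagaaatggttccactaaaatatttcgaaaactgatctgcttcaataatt

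The end of mt-Atp8 (204 nt, chrM:7766-7969) is also the start of mt-Atp6 (681 nt, chrM:7927-8607), and the 43 shared bases are shown because reads there belong to either gene. The capitals mark the start codon of mt-Atp6.
mt-Atp8 and mt-Atp6 overlap, chrM:7927-7969, plus strand: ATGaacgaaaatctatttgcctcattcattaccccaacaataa

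The 4 tRNAs with the most reads are shown with the anticodon in capitals. They carry glycine (mt-Tg), histidine (mt-Th), lysine (mt-Tk) and valine (mt-Tv), and all 4 are on the plus strand.
mt-Tg, chrM:9391-9458: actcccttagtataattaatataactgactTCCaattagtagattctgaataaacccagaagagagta
mt-Th, chrM:11546-11612: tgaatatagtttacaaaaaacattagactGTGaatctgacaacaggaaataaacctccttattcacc
mt-Tk, chrM:7700-7764: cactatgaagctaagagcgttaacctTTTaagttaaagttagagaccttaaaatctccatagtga
mt-Tv, chrM:1025-1093: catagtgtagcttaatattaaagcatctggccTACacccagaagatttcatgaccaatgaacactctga

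The libraries held between 13328623 and 18740591 summed estimated counts, which the authors had scaled. Levels are given as CPM, that is, each count over the library's total on a common scale, with library sizes corrected by the TMM method, whose factors ran from 0.589 to 1.48. The E17.5 replicate 2 library stood apart: it had the lowest TMM factor, 46.3% of its summed values in the small RNA genes 7SL and 7SK (20.002% to 43.7% in the others), and 2.89% in mitochondrial rows (4.24% to 7.69% in the others). Results on members and lists of nuclear partners that change without it are given both ways. Without it, 16.7% of tested genes passed in P3 vs E17.5 and 13.3% in P10 vs E17.5. The markers of the sort were present in every library, with Acta2 at 347 to 1075 CPM and Pdgfra at 165 to 409 CPM. However, 8 of the 10 sorted-cell markers differed across the 4 stages, where 32.1% of all tested genes did. From E17.5 to P3, Hhip went from 609 ± 135 to 102 ± 11.8 CPM, Eln from 4001 ± 1068 to 533 ± 124 CPM and Aspn from 8.71 ± 5.12 to 205 ± 25.03 CPM. Some markers of other cells moved with stage too. The 7 erythroid markers summed to 117 to 180 CPM at E17.5 and to 12.51 to 53.9 CPM after birth. The 6 airway markers summed to 14.95 to 25.8 CPM at E17.5 and to 71.4 to 254 CPM after birth, with Krt5 at 0 at E17.5 and P3. The 7 immune markers summed to 10.2 to 11.9 CPM at E17.5 and to 16.4 to 24.7 CPM after birth. The part of the sorted-cell and other markers in the results against E17.5 was not tested.

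Short genes carry inflated values in this table. Genes with only 1 annotated transcript were compared by length. At 60 to 79 nt the 5th percentile of their values above 0 was 63, against 20 at 200 to 229 nt, 9 at 280 to 319 nt, 2 at 650 to 719 nt and 1 from 930 nt. A tRNA value of 63 and an mt-Co1 value of 1 therefore stand for similarly little evidence. Levels below are on this per-length scale, and a value is not a number of reads.

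The 2 rRNAs were the highest mitochondrial rows in every library. The 12S rRNA mt-Rnr1 (chrM:70-1024) stood at 23190, 17699 and 19429 CPM in the E17.5 libraries, 17488, 21974 and 21348 at P3, 18973, 19842 and 18712 at P7, and 20763, 18363 and 18646 at P10. Its libraries overlapped between all stages. The 16S rRNA mt-Rnr2 (chrM:1094-2675) had 30278, 22182 and 25770 CPM in the E17.5 libraries, 20411, 22522 and 24226 at P3, 21413, 22682 and 21869 at P7, and 24601, 22018 and 21872 at P10. The highest value was in E17.5 replicate 1, and the stages again overlapped.

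Among the mRNAs, levels per length at P10 ran over a range from mt-Atp8 to mt-Nd3. Where a nuclear copy nearly identical in sequence exists, the mitochondrial row and its copy were summed. mt-Atp8, a small subunit of ATP synthase, stood highest at 3030 ± 128 CPM (SD, n = 3), followed by the ATP synthase subunit mt-Atp6 with its copy at 2120.0 ± 190 CPM. The complex IV subunit mt-Co1 stood at 1519 ± 50.02 CPM and the complex III subunit mt-Cytb at 1336 ± 9.22 CPM. These 4 did not overlap with each other at P10.

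The next genes in the P10 order were mt-Nd4l with its copy at 1250.2 ± 129 CPM, mt-Nd1 at 1159 ± 114 CPM and mt-Co2 with its copy at 1103 ± 37.3 CPM. The P10 libraries of mt-Nd4l overlapped with those of mt-Cytb and mt-Nd1, and those of mt-Nd1 with those of mt-Co2. mt-Nd6 at 976 ± 7.34 CPM lay within the range of mt-Co3 with its copy, at 940.0 ± 52.4 CPM. Below them stood mt-Nd5 at 769 ± 92.1, mt-Nd4 at 601 ± 32.5, mt-Nd2 at 501 ± 42.6 and mt-Nd3 with its copy at 428 ± 63.1 CPM, of which only mt-Nd2 and mt-Nd3 overlapped. All the Nd genes encode membrane subunits of complex I, and mt-Co2 and mt-Co3 are complex IV subunits beside mt-Co1.

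**Figure D1:**
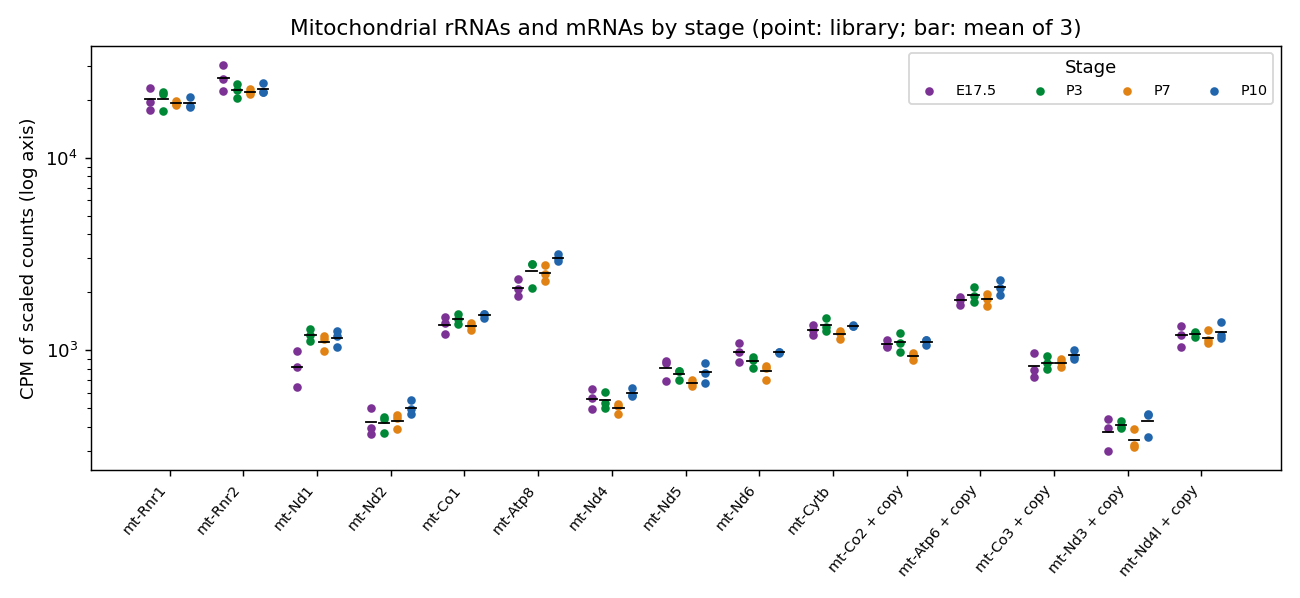
CPM of scaled counts (log axis) of the 2 rRNAs and 13 mRNAs, with each point a library, each bar the mean of 3 libraries and colours for the stages; 5 mRNAs are summed with their nuclear copy. The rRNAs lie between 17488 and 30278 CPM and the mRNAs between 299 and 3170.0 CPM, and the E17.5 points of mt-Nd1 lie below all later points of that gene.

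The mitochondrial rows of the copied genes were low and scattered, and their nuclear copies held most of the value. The mt-Co2 row stood at 53.8, 228.9 and 0 CPM in the E17.5 libraries, 45.9, 183 and 58.4 at P3, 59.1, 22.4 and 229.4 at P7, and 23.6, 148 and 0 at P10. It was listed at 0 in E17.5 replicate 3 and P10 replicate 3, while the sum with Gm28661 was 1041 and 1060.0 CPM in the same libraries. The copy held 75.7% to 100% (median 94.9%) of the mt-Co2 pair. For the other pairs it held 40.2% to 83.0% of mt-Atp6, 40.9% to 96.0% of mt-Co3, 92.7% to 98.6% of mt-Nd3 and 62.4% to 87.0% of mt-Nd4l.

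The sums were steady where the rows were not. Over 5 genes and 4 stages, the coefficient of variation between the 3 libraries of a stage ran from 4.47% to 139% (median 49.8%) for the mitochondrial rows and from 2.96% to 18.9% (median 8.18%) for the sums. The other 8 mRNAs ran from 0.690% to 20.8% (median 8.58%) and the rRNAs from 2.93% to 15.6%. For mt-Co2 the E17.5 libraries had a summed level of 1072 ± 45.0 CPM, the P3 libraries 1097 ± 125 CPM, the P7 libraries 935 ± 37.2 CPM and the P10 libraries 1103 ± 37.3 CPM. The standard error of its log2 fold change in P3 vs E17.5 was 1.98 for the row as deposited and 0.10 for the sum.

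Copies of 2 more mRNAs took less. Gm29216, which aligns to 31.8% of mt-Co1 with 6 mismatches, held 5.13% to 28.3% of the summed value with mt-Co1; the 2 models differ in length. Gm28439 matches 63.6% of mt-Nd4 with 0 mismatches and was listed at 0 to 4. Which of 2 places a read came from could not be told apart where their sequences are identical.

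**Figure D2:**
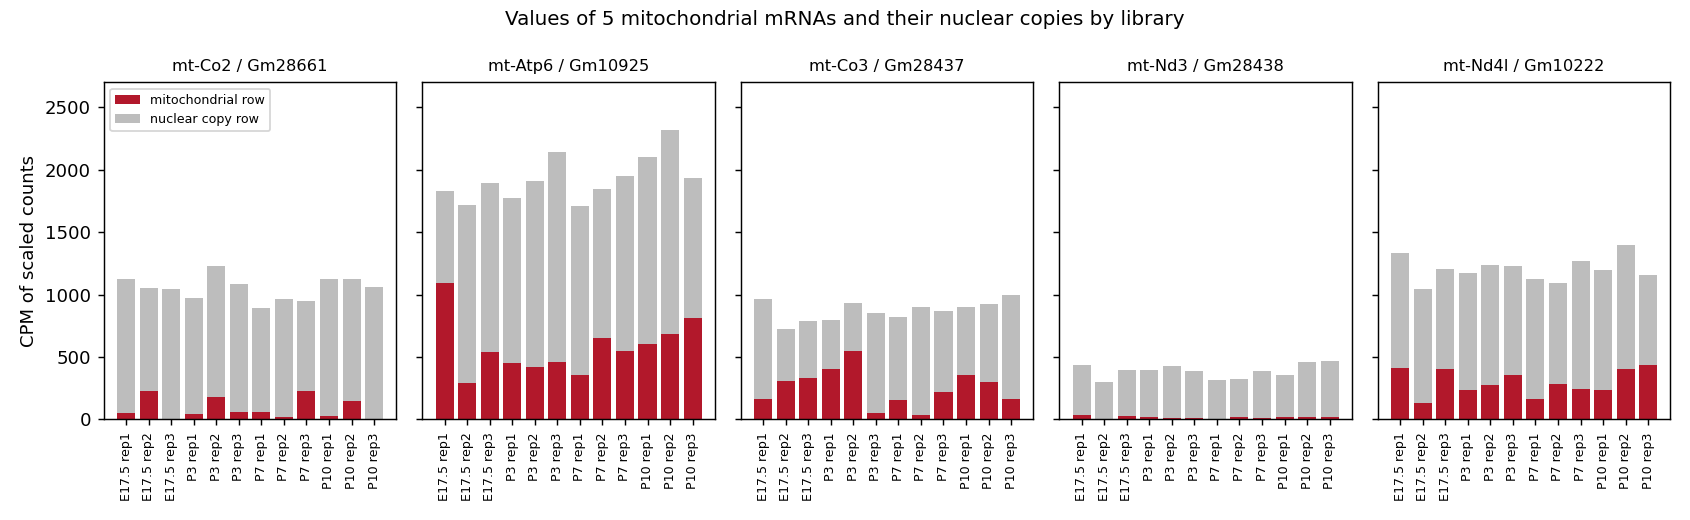
CPM of scaled counts by library for the mitochondrial row (red) and the nuclear copy row (grey, stacked above it) of 5 mRNAs. The height of the stacks changes little between libraries while the red share varies, from 0 in 2 mt-Co2 libraries to most of the mt-Atp6 stack in E17.5 replicate 1.

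For stage differences, edgeR's quasi-likelihood test was run on 16827 genes that passed a filter on low counts, with Benjamini-Hochberg adjustment and a threshold of 0.05. The filter kept all 13 mRNAs, both rRNAs and 17 of the 21 tRNAs. Across the 4 stages, 0 of these 32 members passed, where 32.1% of all tested genes did. Of the 16827 tested genes, 7461 had an unadjusted edgeR p under 0.05. Among the members, mt-Nd1, mt-Atp8 and mt-Nd6 were below that line, with adjusted p values of 0.0551, 0.0667 and 0.101 in edgeR. DESeq2 called those 3 and limma-voom called mt-Nd1 alone.

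From E17.5 to P3, mt-Nd1 rose and no other member passed (25.1% of all tested genes did). mt-Nd1 (957 nt, chrM:2751-3707), a complex I subunit encoded just after the 16S rRNA and the leucine tRNA mt-Tl1, had levels of 986, 646 and 814 CPM in the E17.5 libraries, and of 1117, 1201 and 1295 CPM in the P3 libraries. The stages did not overlap. On the log2 scale the difference was 0.56 (SE 0.15), with an edgeR adjusted p of 0.0228. Later libraries lay between 995 and 1257 CPM, all above E17.5. Leaving out E17.5 replicate 2 ended the edgeR call (0.44, with an adjusted p of 0.0553), as did leaving out P3 replicate 2 (0.59, 0.051) or P3 replicate 3 (0.51, 0.0676). DESeq2 still called mt-Nd1 without E17.5 replicate 2 (0.43, adjusted p = 0.00741). Scaling by library totals (0.69, adjusted p = 0.194) and a fit on only these 6 libraries (0.58, adjusted p = 0.0783) ended the edgeR call too.

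No other mRNA passed over the same interval. With the 5 copied genes taken as sums, the other estimates were smaller than that of mt-Nd1, and 8 of the 12 mRNAs other than mt-Nd1 had positive estimates, with a median log2 fold change of 0.05 beside -0.05 for all genes in that fit. Over the 13 rows as deposited, mt-Nd1 included, 6 were positive and the median was -0.0033. mt-Atp8 had the highest of the other estimates outside the copied rows, 0.29 (SE 0.14, adjusted p = 0.153). mt-Nd2, the next mRNA along the precursor, had a log2 fold change of -0.0033 (SE 0.14), mt-Co1 of 0.10 (SE 0.10), mt-Cytb of 0.08 (SE 0.10), mt-Nd4 of -0.03 (SE 0.12) and mt-Nd5 of -0.11 (SE 0.12). mt-Nd6, the mRNA on the minus strand, had -0.17 (SE 0.11). The 12S rRNA had 0.01 (SE 0.14) and the 16S rRNA -0.22 (SE 0.14, adjusted p = 0.272). The 5 sums of mRNA and nuclear copy lay between 0.02 and 0.11, with standard errors of 0.10 to 0.16.

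From P3 to P7, 0 of the 32 members passed and 0.00594% of all tested genes did. By unadjusted p in edgeR, 0 members and 2399 of the 16827 tested genes were under 0.05. DESeq2 called the tRNA mt-Ts1, which was listed at 0 in all 3 P3 libraries. The median of the mRNA rows was -0.13 and 4 of 13 estimates were positive. With library totals in place of TMM the median of all genes moved by 0.29 and 11 of 13 mRNA estimates were positive. Relative to all genes the mRNA median was -0.14 under each of 4 scalings. With the 5 copied genes as sums, 2 of 13 estimates were positive under TMM. mt-Nd5 and the sums of mt-Co2 and mt-Nd3 were lower at P7 than at P3 without overlap. The share of all genes without overlap between P3 and P7 is not given. The rRNAs had log2 fold changes of -0.08 and -0.03 (SE 0.14 each).

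From P7 to P10, 0 of the 32 members passed (3.64% of all tested genes did), and 12 of 13 mRNA estimates were positive under each of 4 scalings. Their median log2 fold change was 0.26, beside 0.01 for all genes, and the exception was the mt-Co2 row. Summed with its copy, mt-Co2 had 0.24 (SE 0.10, adjusted p = 0.222). By unadjusted p under 0.05, edgeR had mt-Nd6 and mt-Nd4 among the members, beside 3406 of the 16827 tested genes. mt-Nd6 (519 nt, chrM:13552-14070) stood at 696, 808 and 826 CPM at P7 and 984, 970 and 974 CPM at P10. Its stages did not overlap and its log2 fold change was 0.33 (SE 0.11, adjusted p = 0.137), which only DESeq2 placed under the threshold (adjusted p = 0.0423). mt-Nd4 (chrM:10167-11544) stood at 466, 522 and 513 CPM at P7 and 581, 639 and 585 CPM at P10, again without overlap (0.26, SE 0.12, adjusted p = 0.23). Of the other mRNAs, mt-Atp8, mt-Co1, mt-Cytb, mt-Nd2 and the sums of mt-Co2 and mt-Co3 did not overlap between P7 and P10 either. The share of all genes without overlap is not given here. The rRNAs had 0.01 and 0.05 (SE 0.14 each).

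Between E17.5 and P10, mt-Atp8 and mt-Nd1 rose (18.3% of all tested genes passed). mt-Atp8 had 2336, 1911 and 2071 CPM in the E17.5 libraries and 3002, 2918 and 3170.0 CPM in the P10 libraries. The P3 libraries stood at 2112, 2820 and 2810 CPM and the P7 libraries at 2285, 2759 and 2495 CPM, within or between those ranges. E17.5 and P10 did not overlap, and the log2 fold change was 0.52 (SE 0.14, adjusted p = 0.0247). The mt-Nd1 libraries at P10, at 1034, 1257 and 1186 CPM, also lay above those at E17.5 (0.51, SE 0.15, adjusted p = 0.0446).

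Both calls lay near the threshold. The mt-Atp8 call was lost on leaving out E17.5 replicate 2 (log2 fold change 0.46, edgeR adjusted p = 0.0841), E17.5 replicate 3 (adjusted p = 0.0638), P10 replicate 2 (0.0538) or P10 replicate 3 (0.0845), and on fitting only the 6 libraries compared (0.0971). In the last 4 of these fits the log2 fold change was 0.49 to 0.55. The mt-Nd1 call in P10 vs E17.5 ended in 10 of the 12 fits that left out 1 library, 6 of them without a P3 or P7 library and with a log2 fold change of 0.51. It was lowest, 0.36 (adjusted p = 0.117), without E17.5 replicate 2. It also ended without a filter on low counts (adjusted p = 0.0543) and with only 6 libraries (0.159). Since mt-Atp8 is short and shares bases with mt-Atp6, its values carry the length scaling and the overlap described above. mt-Atp6 summed with Gm10925 had a log2 change of 0.22 (SE 0.11, adjusted p = 0.203) over the same interval.

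**Figure D3:**
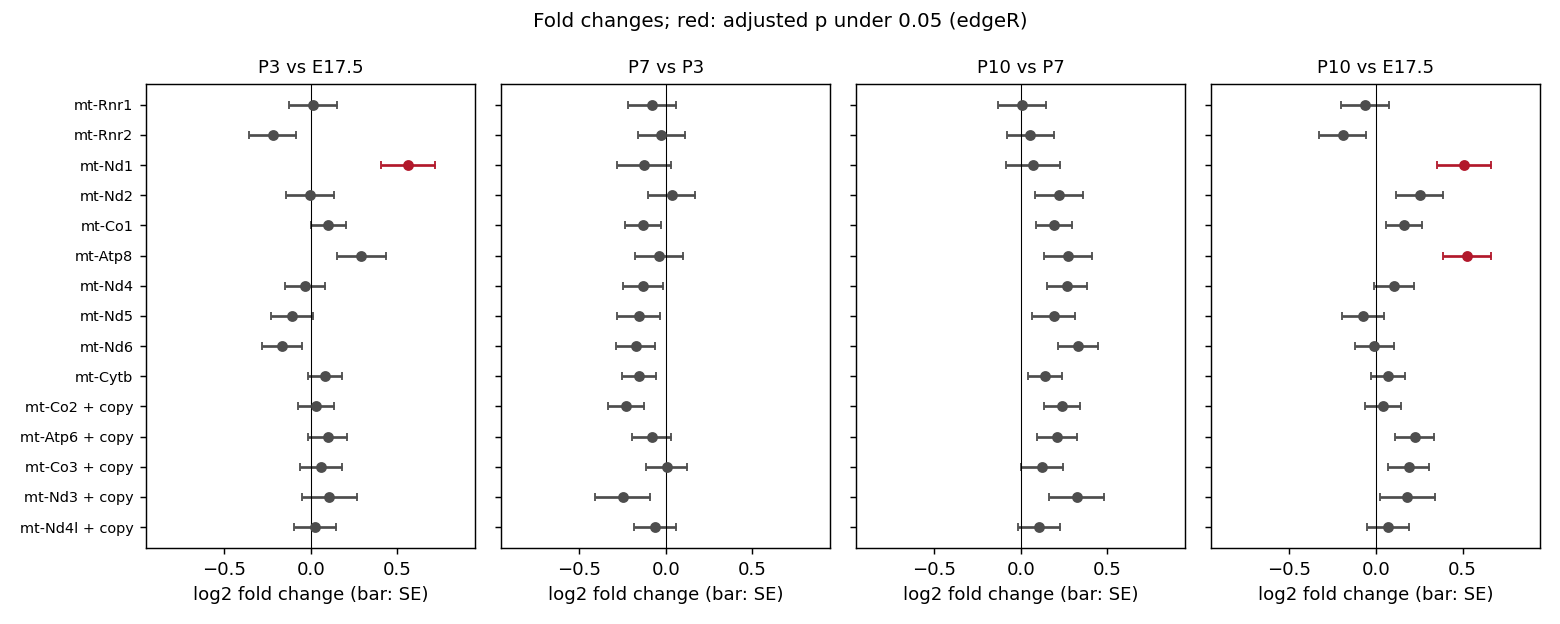
log2 fold changes (points) with standard errors (bars) of 2 rRNAs and 13 mRNAs in the 4 stage comparisons, with 5 mRNAs summed with their nuclear copy; red marks an adjusted p under 0.05 in edgeR. mt-Nd1 in P3 vs E17.5 and mt-Nd1 and mt-Atp8 in P10 vs E17.5 are red, and all points of P10 vs P7 lie above 0.

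Ratios between members of one library do not depend on library size. The ratios here were chosen after their values were seen and are given with no test. The ratio of 12S to 16S rRNA was 0.766, 0.798 and 0.754 in the E17.5 libraries, 0.857, 0.976 and 0.881 at P3, 0.886, 0.875 and 0.856 at P7, and 0.844, 0.834 and 0.853 at P10. Each E17.5 library, replicate 2 included, lay below each later library.

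The ratio of mt-Nd1 to its neighbour mt-Nd2 was 1.98, 1.75 and 2.06 at E17.5, 2.999, 2.73 and 2.89 at P3, 2.56, 2.48 and 2.66 at P7, and 2.23, 2.30 and 2.41 at P10. No 2 stages overlapped, and the order from high to low was P3, P7, P10 and E17.5. Relative to mt-Cytb, mt-Nd1 lay between 0.538 and 0.731 at E17.5 and between 0.818 and 0.977 at P3. It lay between 0.870 and 0.958 at P7 and between 0.777 and 0.944 at P10. There E17.5 was again lowest, but the later stages overlapped. Relative to the 16S rRNA, mt-Nd1 lay between 0.0291 and 0.0326 at E17.5 and between 0.0420 and 0.0571 later. The 2 rRNAs together were 3.26 to 3.58 times the mRNA sum, copies included, at E17.5, 2.84 to 2.99 times at P3, 2.87 to 3.16 times at P7 and 2.48 to 2.96 times at P10, so that E17.5 again lay above all later libraries. Whether a step that depletes rRNA was used is not given in the labels. The 2 cytosolic rRNA models analysed here, Gm26917 and Rn18s-rs5, summed to 9807 to 13766 CPM at E17.5 and 9448 to 14658 CPM at P3. They summed to 9569 to 11341 CPM at P7 and 7659 to 9483 CPM at P10. Each P10 library lay below each E17.5 library. Gm26917 was lower at P10 than at E17.5 (-0.53, SE 0.15, edgeR adjusted p = 0.0323), but neither model passed without E17.5 replicate 2. The part of these 2 models in the ratios was not tested.

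On the 2 strands, mt-Nd6 was 1.07 to 1.45 times as high per length as mt-Nd5, which lies opposite and overlaps its end. The kit is stranded per the labels, but whether the counting used strand is not given in the sources used here. Without it, reads of the 2 strands at mt-Nd6 cannot be told apart.

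**Figure D4:**
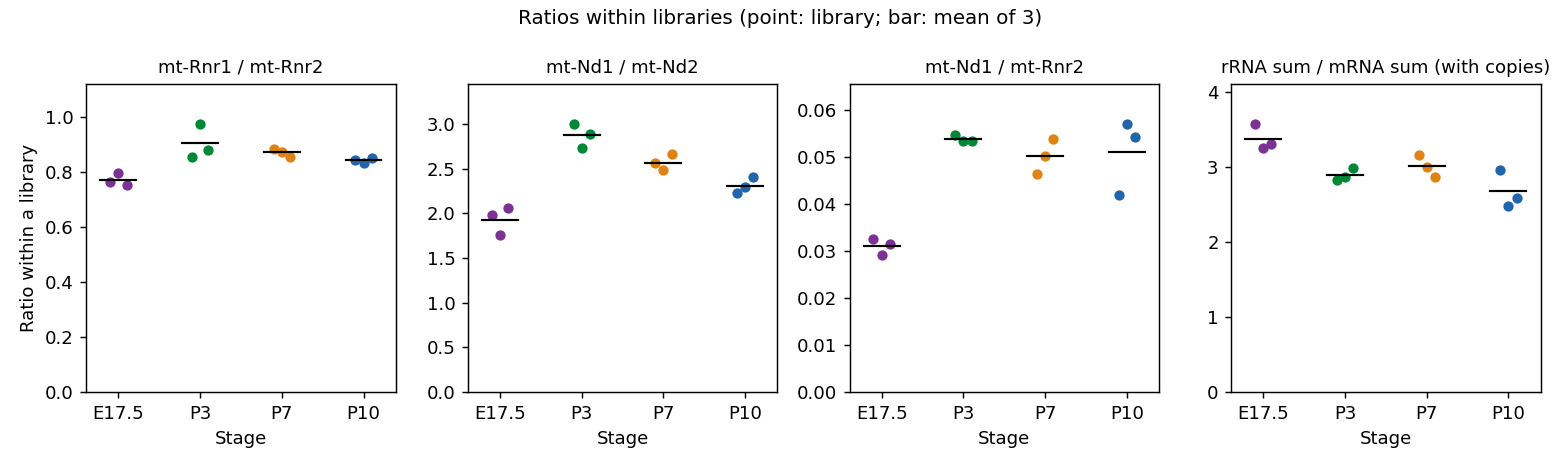
Ratios within each library (points, bar for the mean of 3) of mt-Rnr1 to mt-Rnr2, mt-Nd1 to mt-Nd2, mt-Nd1 to mt-Rnr2 and the rRNA sum to the mRNA sum with copies, by stage; axes start at 0. The E17.5 points lie below all others in the first 3 panels and above all others in the fourth.

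The tRNAs were measured by few reads. Their values were near whole multiples of a step that depended on the library and the gene's length, between 54.6 and 118.9 at 69 nt: 139 of 142 values above 0 (97.9%) were within 0.15 of a whole multiple. Read as such multiples, called read equivalents here, all 21 tRNAs in 12 libraries came to 829, and 48 values were 1. A deposited value of 119 in P10 replicate 3 was thus equivalent to 1 read. Of the 252 values, 142 were above 0.

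Only mt-Tg, mt-Th and mt-Tk were above 0 in all 12 libraries. mt-Tg, the glycine tRNA between mt-Co3 and mt-Nd3, held 325 of the 829 read equivalents, with 23, 60 and 18 at E17.5, 14, 12 and 48 at P3, 44, 32 and 24 at P7, and 25, 20 and 5 at P10. The spread within a stage was as wide as that between stages. mt-Th, which follows mt-Nd4, held 106, with 1 to 21 per library, and mt-Tk, between mt-Co2 and mt-Atp8, held 96, with 1 to 23. mt-Tv, between the rRNAs, held 82 and was at 0 in P3 replicate 2. The other 17 held 0 to 14 in each library. The 13 tRNAs of the plus strand held 83.4% and the 8 of the minus strand 16.6% of read equivalents. The 4 highest tRNAs held 609 of the 691 on the plus strand, and among the other 17 the plus strand held 82 of 220 (37.3%). Here too the use of strand in counting is not known.

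Summed over the tRNAs, libraries held 61, 187 and 42 read equivalents at E17.5, 37, 25 and 107 at P3, 86, 78 and 48 at P7, and 70, 63 and 25 at P10. E17.5 replicate 2, with the highest share of 7SL and 7SK, had the highest sum, and all stages overlapped. The filter on low counts and the tests took the scaled values as counts. The tRNAs tested therefore included genes with as few as 3 read equivalents over 12 libraries. In edgeR 0 of 17 tested tRNAs passed in any of the 4 comparisons, with 1 unadjusted p under 0.05 in P3 vs E17.5 and 0 in the other comparisons. The median standard error of a log2 fold change was about 2.05 for tRNAs in P3 vs E17.5 and 0.14 for mRNAs. For mt-Tg, with the most reads, the log2 fold change from E17.5 to P10 was -0.93 (SE 0.76, adjusted p = 0.451). DESeq2 called mt-Ts1 and mt-Td lower at P3 than at E17.5; both were listed at 0 in all P3 libraries and held at most 2 and 6 read equivalents in an E17.5 library, in each case replicate 2. Without that library mt-Ts1 was at 0 at both stages and the mt-Td call ended (DESeq2 adjusted p = 0.129).

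**Figure D5:**
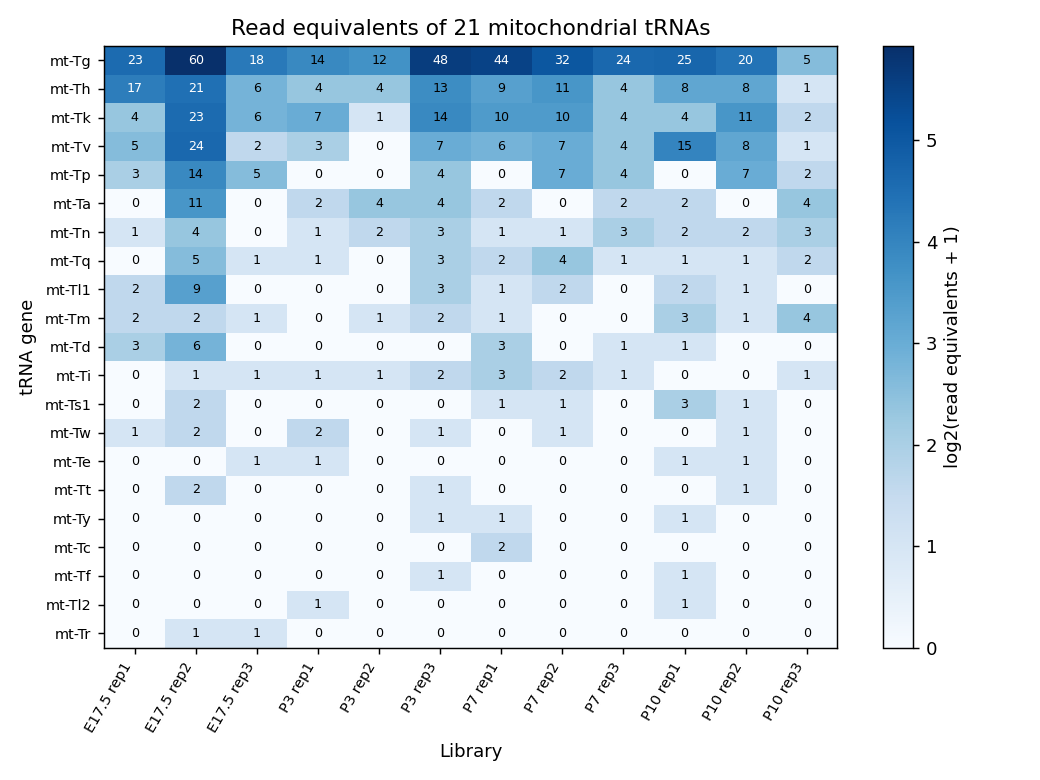
Read equivalents (numbers in cells; colour on a log2 scale of the number plus 1) of 21 mitochondrial tRNAs (rows) in 12 libraries (columns). mt-Tg is the fullest row, with 5 to 60 per library, most other rows hold values near 0, and E17.5 replicate 2 is the fullest column.

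The nuclear genes that work with these RNAs were taken as lists, and each count is from the same edgeR fit. From E17.5 to P3, 22 of 43 nuclear subunits of complexes I, III, IV and V rose and 0 fell: 2 of 7 core subunits of complex I, 4 of 9 of complex III, 7 of 12 of complex IV and 9 of 15 of complex V, together 51.2% beside the 25.1% of all genes that passed in either direction. Without E17.5 replicate 2, 11 of 43 rose and 0 fell (25.6%, beside 16.7% of all genes). In that fit the median log2 fold changes of complexes I, III, IV and V were 0.18, 0.32, 0.41 and 0.33. Over all 12 libraries these medians were 0.40, 0.37, 0.41 and 0.35. The 13 mitochondrial mRNAs had a median of 0.06 over all 12 libraries with the copied genes as sums (-0.0033 as deposited). Ndufv2 of complex I rose by 0.78 on the log2 scale (SE 0.11, adjusted p = 0.000586) and Cox6a1 of complex IV by 0.83 (SE 0.13, adjusted p = 0.00126). Atp5j2 of ATP synthase rose by 0.69 (SE 0.12, adjusted p = 0.00185) and Cyc1 of complex III by 0.44 (SE 0.10, adjusted p = 0.00959). Of complex II, which has no mitochondrially encoded subunit, 1 of 4 rose, Sdhb (0.50, SE 0.10, adjusted p = 0.00419). The difference between nuclear and mitochondrial subunits was not tested.

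From P7 to P10 the medians of the 2 sets were of opposite sign. The median log2 fold changes of the nuclear subunits were -0.26 (complex I), -0.21 (III), -0.27 (IV) and -0.22 (V). The 13 mitochondrial mRNAs had a median of 0.26 (0.21 with sums), and 0 of them passed. In edgeR 1 of the 43 nuclear subunits was higher (Cox7a1, 6.43, SE 1.345, adjusted p = 0.0408) and 1 lower (Atp5g2, -0.61, SE 0.09, adjusted p = 0.0132). Together these were 4.65%, beside 3.64% of all genes. Between E17.5 and P10, 5 of the 43 fell and 0 rose: Uqcrfs1 (-0.57), Uqcrh (-0.51), Cox4i1 (-0.41), Atp5d (-0.53) and Atp5g2 (-0.66). These 11.6% stand beside 18.3% of all genes. Without E17.5 replicate 2, 0 of the 43 were higher and 3 lower from P7 to P10 (6.98%, beside 3.67% of all genes). In that fit 4 were lower and 0 higher at P10 than at E17.5 (9.3%, beside 13.3% of all genes).

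Proteins of the mitochondrial ribosome, which bind the 2 rRNAs, rose in 23 of 77 cases and fell in 1, Mrpl24, from E17.5 to P3 (31.2%, beside 25.1% of all genes; median 0.41). From P7 to P10, Mrpl46, Mrpl54 and Mrps10 fell (3 of 77, 3.9%, beside 3.64% of all genes) and 0 rose (median -0.33). Without E17.5 replicate 2, 18 of 77 rose and 1 fell from E17.5 to P3 (24.7%, beside 16.7% of all genes). From P7 to P10, 4 fell and 0 rose in that fit (5.19%, beside 3.67% of all genes). Of 23 genes for RNA processing and stability, 3 rose and 1, Pde12, which removes poly(A) tails, fell from E17.5 to P3 (-0.57, SE 0.19, adjusted p = 0.0494), together 17.4% beside 25.1% of all genes. Lrpprc and Slirp, partners that bind and stabilise mitochondrial mRNAs, rose by 0.58 (SE 0.13, adjusted p = 0.0085) and 1.12 (SE 0.28, adjusted p = 0.0157), and Rexo2, an exonuclease for short RNA fragments, rose by 0.80 (SE 0.19, adjusted p = 0.0124). Without E17.5 replicate 2, 2 of the 23 rose and 0 fell (8.7%, beside 16.7% of all genes). In that fit the calls of Rexo2 (0.74, adjusted p = 0.0529) and Pde12 (-0.46, adjusted p = 0.167) ended. Hsd17b10, a subunit of the enzyme that cuts the 5′ ends of tRNAs, differed across the 4 stages (adjusted p = 0.00646), from 42.8 ± 3.48 CPM at E17.5 to 27.5 ± 3.02 CPM at P10.

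Of 21 genes for mitochondrial transcription and DNA maintenance, 1 rose and 1 fell from E17.5 to P3, and 0 passed across the 4 stages. The shares called in this and the next lists were 9.52% here, 13.6% for tRNA charging, 9.09% for modification and 28.6% for biogenesis, beside 25.1% of all genes. Tfam, which packages mitochondrial DNA and takes part in starting its transcription, rose (0.54, SE 0.16, adjusted p = 0.0345), and the DNA polymerase Polg fell (-0.29, SE 0.09, adjusted p = 0.0454). Neither passed without E17.5 replicate 2 (adjusted p = 0.118 and 0.098). Of 22 genes for charging mitochondrial tRNAs, 3 rose and 0 fell from E17.5 to P3: Kars (0.69, SE 0.09, adjusted p = 4.0e-04), Gars (1.14, SE 0.16, adjusted p = 8.3e-04) and Qrsl1 (1.14, SE 0.21, adjusted p = 0.00289). Without E17.5 replicate 2, 4 of these 22 rose and 0 fell (18.2%, beside 16.7% of all genes). Kars and Gars also charge cytosolic tRNAs. Of 22 genes for modifying rRNA and tRNA, 2 rose and 0 fell: Pus1, a pseudouridine synthase (1.22, SE 0.13, adjusted p = 1.5e-04), and Nsun2, an RNA methyltransferase (0.78, SE 0.18, adjusted p = 0.0102). Of 14 tested regulators of mitochondrial biogenesis, 4 fell and 0 rose from E17.5 to P3: Ppard, Myc, Ppara and Ppargc1a. Ppargc1a, a coactivator of genes for mitochondrial proteins, went from 6.61 ± 3.29 CPM to 2.17 ± 0.853 CPM (-1.61, SE 0.43, adjusted p = 0.0198). At P10 it stood at 6.40 ± 1.35 CPM (P10 vs E17.5 -0.05, SE 0.41, adjusted p = 0.955), and Ppara at 2.09 ± 0.255 CPM (0.07, SE 0.30, adjusted p = 0.902). Without E17.5 replicate 2, 1 of 15 tested regulators fell from E17.5 to P3, Ppard (-0.75, adjusted p = 0.0329). This was 6.67%, beside 16.7% of all genes.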

How the data were processed

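The authors deposited estimated counts per gene, scaled and given as whole numbers; the length scaling was inferred from the values. The build was GRCm38 per the submitters' processing notes. Neither aligner, quantifier nor annotation is given in the sources used here. RNA was extracted from sorted cells and made into low-input stranded total RNA libraries per the labels' protocols, although the molecule label names polyA RNA.

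Symbols were matched to GENCODE M21 (GRCm38) for positions, lengths and sequences. Stage differences were tested in R 4.3.3 with edgeR 4.0.16 (quasi-likelihood, TMM, its filter on low counts by stage, robust fitting; limma 3.58.1) in 1 model of stage over 12 libraries, and p-values were adjusted by Benjamini-Hochberg over 16827 genes with a threshold of 0.05. The script was tested on simulated data. Standard errors were derived from the fold change and the F statistic. Library totals of 13328623 to 18740591 limit low genes most.

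Members and lists were chosen with earlier results of these data known. All mRNAs and rRNAs are named, tRNAs above 0 in every library or passing a test, and from each list up to 4 members with the lowest adjusted p across stages. mt-Tv, mt-Ts1, mt-Td, Tfam, Pde12, Cox7a1, Uqcrh and the named Mrpl and Mrps genes were named after their values were seen. Alternatives were other scalings, no filter, DESeq2 1.42.0, limma-voom, 6 libraries only, a replicate block, each library left out and, added after seeing the data, rows summed with the nuclear copies of 5 mRNAs and, for DESeq2 and the gene lists, E17.5 replicate 2 left out.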

Additional observations from a re-analysis of the deposited data

How the results depend on the processing

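The 3 calls of members kept a positive direction in all 21 alternatives. mt-Nd1 in P3 vs E17.5 had log2 fold changes of 0.44 to 0.72 and stayed called in 16 alternatives, mt-Atp8 in P10 vs E17.5 had 0.46 to 1.02 and stayed called in 16, and mt-Nd1 in P10 vs E17.5 had 0.36 to 0.98 and stayed called in 8. DESeq2 called 3 members across the 4 stages, 3 in P3 vs E17.5, 1 in P7 vs P3 and 1 in P10 vs P7, where edgeR called 0, 1, 0 and 0. limma-voom called 1 across the 4 stages. The share of all genes called is not given here for DESeq2, limma-voom or most fits without 1 library. Counts of member calls in those fits therefore cannot be set against it. With library totals, 0 members passed in P3 vs E17.5; this scaling moved the median of all genes by 0.16, 0.29, 0.05 and 0.50 in the 4 comparisons. A fit on only the 6 libraries compared called 0 in P3 vs E17.5 and 0 in P10 vs E17.5. Without a filter, 1 passed in P10 vs E17.5. Leaving out each library gave 0 to 2 calls across the 4 stages, 0 to 2 in P3 vs E17.5 and 0 to 3 in P10 vs E17.5; of these, the tRNA mt-Tr passed only without E17.5 replicate 1, on 1 read equivalent in each of the 2 E17.5 libraries then left and 0 elsewhere. The cause was not tested for the other changes.

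With the replicate block, 1 member passed in P10 vs E17.5, where mt-Nd1 had an adjusted p of 0.078 in edgeR. The replicate numbers did not pair the samples: correlations of same-numbered deviations ran from -0.273 to 0.188, and 3 of 12 libraries correlated best with their own number. Summing 5 mRNA rows with nuclear copies left the counts of calls in the 4 comparisons as they were. The tRNAs held 25 to 187 read equivalents per library, and the part of depth in these low numbers was not tested.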
